A study of Ictidomys tridecemlineatus with 15 samples.

Results

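Mitochondria translate their own few messages, which encode core subunits of the respiratory chain and ATP synthase, on a ribosome of their own. Its RNAs come from the mitochondrial genome, while all of its proteins are encoded in the nucleus, made in the cytosol and imported, so that a working mitoribosome needs many nuclear genes to be transcribed. The Mrpl genes are named for the large subunit, which forms the peptide bond and holds the exit tunnel, and the Mrps genes for the small subunit, which binds the message and decodes it. Part of these proteins have a bacterial counterpart, and others were added in mitochondria. The nascent transcription of these genes was examined here in liver of hibernating 13-lined ground squirrels. The members are the counted units of which a name begins with Mrpl or Mrps and a digit. There were 39 such units among 6324, of which 12 carried that single name, among 4705 single-gene units, and 27 were merged with other loci.

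Global run-on sequencing (GRO-seq) was performed on nuclei of frozen liver, in which polymerases already engaged on the DNA extend and label their RNA, so that reads report transcription under way and not the amount of RNA. The animals were female *Ictidomys tridecemlineatus* from a laboratory colony, without a genetic or drug treatment, and were grouped by body temperature and time: SA, summer active and warm; IBA, interbout aroused, warm for a short time between torpor bouts in winter; Ent, entrance into torpor, while cooling; ET, early torpor; and LT, late torpor, both cold. There were 3 libraries each of SA, IBA, Ent and ET, and 2 of LT, with total counts from 3713883 to 8884763 and, for single-gene members, 24 to 718 counts per library. The LT sample numbered 2 in the labels has no counts among the deposited values and was not used here. The paper states that an LT sample of relatively poor quality, also an outlier, was removed from its analyses. The run-on reaction was carried out on isolated nuclei for every state, so it shows where polymerases stood and not how fast they moved in the cold animal. All 3 ET animals came from a collection season that no other state shares, and the season of ET cannot be told apart from its state. The 3 IBA libraries were of the 2009 season and the 2 LT libraries of 2007, so IBA and LT share no season. SA had 1 library of 2007 and 2 of 2009. No ET or LT library was of 2009, so warm and cold states differ largely in season as well. Levels are given as CPM, counts scaled to a library size that is the same for all libraries after normalization, and are therefore shares of the counted transcription. A rise or fall below is one of share. Changes in total transcription between states, which the paper states are obscured by such scaling, are not seen. Of 12 hepatocyte markers, 8 had a single-gene unit, and their summed level was 11005 to 21129 CPM in SA, 11372 to 15101 in IBA, 9026 to 10423 in Ent, 3907 to 6520 in ET and 4962 to 7353 in LT. Of 14 markers of other liver cells only Kdr and Pecam1 had one, with 132 to 201 CPM summed in SA and 73.8 to 91.2 in LT. The part of these shifts in the results below was not tested, and in whole liver fewer cells of a type and less nascent RNA per cell cannot be told apart.

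The 12 single-gene members were Mrpl1, Mrpl14, Mrpl18, Mrpl19, Mrpl22, Mrpl45 and Mrpl48 of the large subunit and Mrps9, Mrps18a, Mrps27, Mrps30 and Mrps31 by name of the small subunit. Mrps18a and Mrps30 keep their small-subunit names, although both proteins are built into the large subunit of the assembled mammalian mitoribosome. Their units were 5716 to 89022 nt long, with a median of 28363 nt against 36217 nt over all single-gene units. Per kb of unit, Mrpl18 had the highest level, 5.74 CPM per kb over all libraries, which was the 88.7th percentile of all single-gene units. Mrps18a followed with 2.34 CPM per kb, and Mrps27 was lowest with 0.74. The median of the 12 was 1.38 CPM per kb, against 2.16 over all single-gene units, so most members lay in the lower part of the liver's transcribed units. A RefSeq table of another assembly lists 76 protein-coding genes with such names, 49 large and 27 small, of which 37 had a unit of any kind, so these 12 are a small part of the particle.

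**Figure D1:**
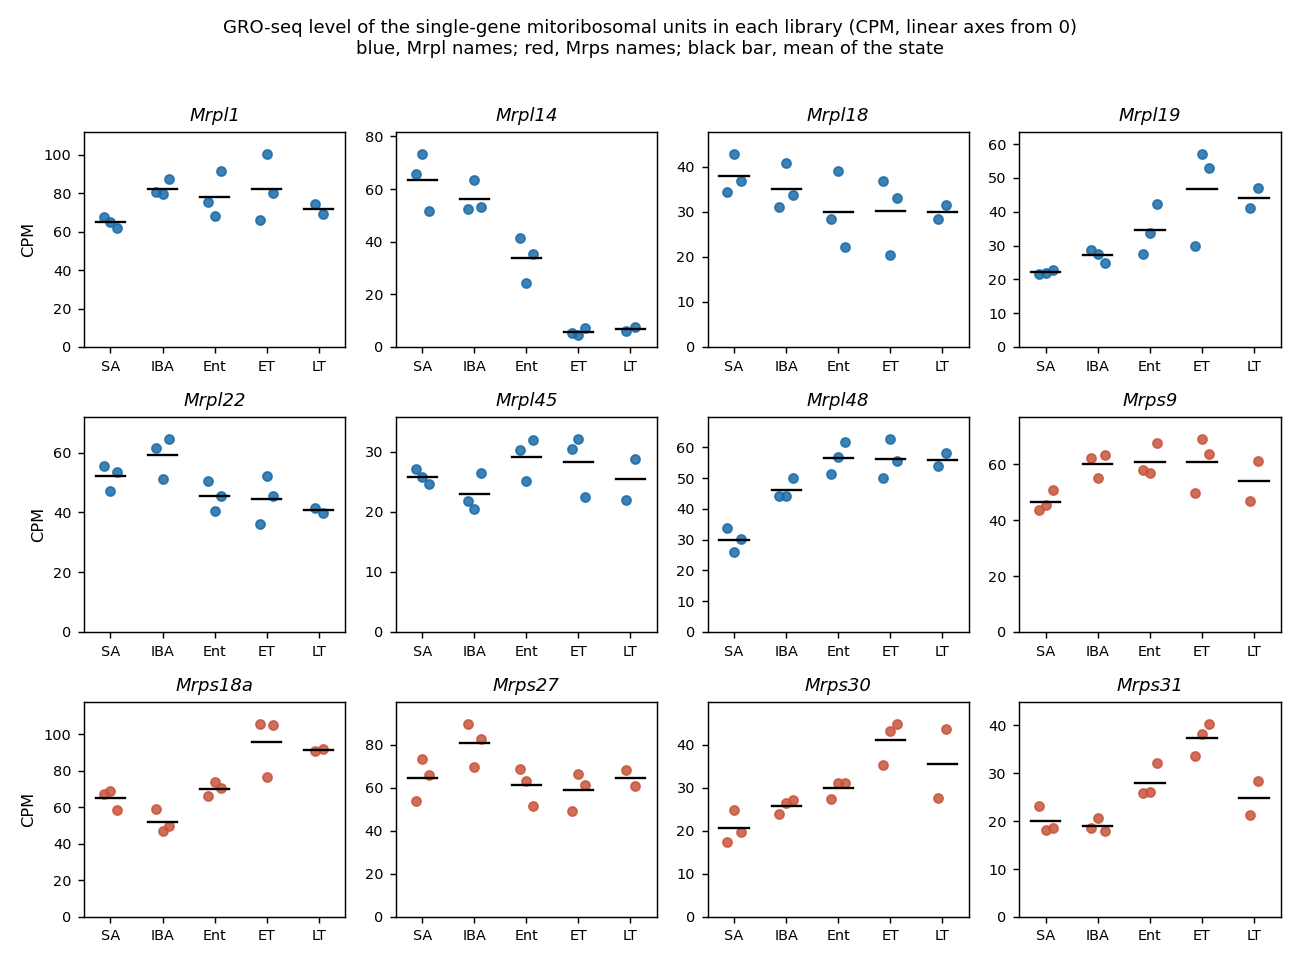
Level of each single-gene member in each of the 14 libraries (CPM, linear axes from 0), by state, with the mean of the state as a black bar, Mrpl names in blue and Mrps names in red. Mrpl14 stood at 4.71 to 7.51 CPM in the ET and LT libraries and at 51.7 CPM or more in SA and IBA, whereas the other members moved within a narrower range.

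When the 5 states were compared together, 2 of the 12 members, Mrpl14 and Mrpl48, differed at an adjusted p of 0.001 (edgeR, quasi-likelihood F test, Benjamini-Hochberg adjustment over all 6324 units), beside 26.4% of all single-gene units. With an adjusted p of 0.05 this was 6 of 12, beside 63.3%. DESeq2 called 6 at 0.001. The low temperature of ET and LT sets them apart from SA and IBA, and in the contrast of these 2 pairs of states, with Ent in the fit but outside the contrast, 5 members at the same threshold were higher in the cold (Mrpl19, Mrpl48, Mrps18a, Mrps30 and Mrps31) and 1 was lower (Mrpl14). Over all single-gene units 18.3% were higher and 18.7% lower. In 4 members every ET and LT library lay above every SA and IBA library (20.3% of all single-gene units), and in 1 every cold library lay below (20.2%). At an adjusted p of 0.05 the members higher in the cold were still 5 (30.1% of all single-gene units), and 2 were lower (35.0%), with Mrpl22 added. Of the 5 higher at 0.001, only Mrps18a was called with each library left out in turn: the number higher fell to 1 without SA replicate 3, IBA replicate 1 or 2, ET replicate 2 or 3 or LT replicate 3, to 2 without IBA replicate 3, and to 3 without SA replicate 1 or 2, Ent replicate 1 or 2 or LT replicate 1.

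Mrpl14, the counterpart of a bacterial protein at the face of the large subunit that meets the small one, changed more than any other member. Its unit spans Itri8 from 48001514 to 48024273 on the minus strand of the HiC_Itri_2 genome. It had 65.8, 73.4 and 51.7 CPM in SA, 52.3, 63.5 and 53.3 in IBA, 41.6, 24.2 and 35.3 in Ent, 5.15, 4.71 and 7.34 in ET, and 6.20 and 7.51 in LT. The SA and IBA libraries overlapped, all Ent libraries lay below them, and the ET and LT libraries lay far below Ent and overlapped each other. The counts behind the cold values were small, 35, 24 and 46 in ET and 41 and 51 in LT, against 184 to 435 in the SA and IBA libraries. The level was 9.50-fold lower in the cold (log2 fold change -3.25, standard error 0.20, 95% confidence interval -3.67 to -2.82, adjusted p = 1.9e-07 by edgeR) and ranked 44 from the lowest among 4705 single-gene units. This call was made under every one of the 22 alternatives run for single members.

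Of the other Mrpl members, Mrpl19 and Mrpl48 rose in the cold. Mrpl19, whose bacterial counterpart also lies at the interface of the subunits, had 21.7, 21.7 and 22.8 CPM in SA, 28.7, 27.6 and 24.9 in IBA, 27.6, 33.7 and 42.4 in Ent, 29.7, 57.2 and 53.0 in ET, and 41.1 and 47.1 in LT. SA was the lowest and tightest state, and ET replicate 1 stood close to IBA. The log2 fold change in the cold was 0.89 (standard error 0.17, adjusted p = 0.000603, edgeR), the largest rise of the 12. A unit on the opposite strand, Gcfc2, overlaps that of Mrpl19, and its own log2 fold change was 0.19 (adjusted p = 0.270 from the same edgeR test). Mrpl48, a protein without a bacterial counterpart in the central protuberance, had 33.7, 25.9 and 30.3 CPM in SA, 44.0, 44.1 and 50.1 in IBA, 51.2, 57.0 and 61.7 in Ent, 50.2, 62.8 and 55.5 in ET, and 53.8 and 58.2 in LT. Every winter library lay above every SA library, which held for 3.12% of all single-gene units, while IBA and ET came within a small gap of each other. Its log2 fold change in the cold was 0.59 (standard error 0.11, adjusted p = 0.000399, edgeR), but from Ent to ET it was only -0.01 (standard error 0.14), so that Ent already stood at the level of torpor.

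The remaining 4 Mrpl members did not pass 0.001 in the cold. Mrpl22, which lines the exit tunnel, had the highest mean in IBA, 59.1 ± 7.18 CPM (SD, n = 3), and the lowest in LT, 40.7 ± 1.17 (SD, n = 2), while SA stood at 52.1 ± 4.32 (SD, n = 3). Its change in the cold was -0.38 on the log2 scale (95% confidence interval -0.65 to -0.12, adjusted p = 0.0147, edgeR). Mrpl18, whose bacterial counterpart holds the 5S rRNA, had means from 29.9 CPM in Ent to 38.1 in SA, and its log2 fold change was -0.28 (-0.68 to 0.12). Mrpl1, of the stalk beside the tRNA exit site, ranged from 64.9 CPM in SA to 82.3 in IBA, with 0.07 in the cold (-0.19 to 0.33). Mrpl45, which helps to hold the ribosome at the inner membrane, ranged from 23.0 CPM in IBA to 29.2 in Ent, with 0.14 (-0.17 to 0.45). The last 3 intervals include 0. Some pairs of states did not overlap: all SA libraries of Mrpl1 (at most 67.7 CPM) lay below all IBA, Ent and LT libraries, and both LT libraries of Mrpl22 (at most 41.6 CPM) lay below all of SA and IBA.

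Of the Mrps members, 3 rose in the cold. Mrps18a, one of the mammalian relatives of bacterial protein S18, had 67.5, 69.0 and 58.2 CPM in SA, 58.8, 47.2 and 49.97 in IBA, 66.1, 73.9 and 70.3 in Ent, 105.7, 76.6 and 105.2 in ET, and 90.5 and 92.1 in LT. It was lowest in IBA, and every cold library lay above every library of the other states. The log2 fold change in the cold was 0.69 (standard error 0.11, adjusted p = 0.00014, edgeR), and it was called under all 22 alternatives. Mrps30, a mitochondria-specific protein, had 17.4, 24.8 and 19.7 CPM in SA, 23.9, 26.3 and 27.1 in IBA, 27.5, 31.1 and 31.0 in Ent, 35.2, 43.2 and 44.8 in ET, and 27.5 and 43.6 in LT. The lower LT library lay just above the highest IBA library, and the higher one among the ET libraries. Its log2 fold change in the cold was 0.73 (standard error 0.15, adjusted p = 0.000841, edgeR). Mrps31, another mitochondria-specific protein and a component of the small subunit itself, had 23.1, 18.2 and 18.5 CPM in SA, 18.5, 20.7 and 18.0 in IBA, 25.9, 26.0 and 32.2 in Ent, 33.6, 38.3 and 40.4 in ET, and 21.3 and 28.4 in LT. The ET libraries were the highest, and the lower LT library lay within the range of SA. The log2 fold change in the cold was 0.65 (standard error 0.13, adjusted p = 0.000899, edgeR). The calls of Mrps30 and Mrps31 were close to the threshold and were lost in 13 and 14 of the 22 alternatives, with adjusted p up to 0.00703 and 0.00701.

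Mrps9 and Mrps27, both proteins of the small subunit, did not pass the test in the cold. Mrps9, whose bacterial counterpart reaches toward the decoding site, was lowest in SA, at 46.5 ± 3.64 CPM, and higher in IBA and Ent, at 60.2 ± 4.38 and 60.8 ± 6.05 (SD, n = 3 each). The LT libraries averaged 54.0 ± 10.1 CPM (SD, n = 2), and the change in the cold was 0.11 (95% confidence interval -0.14 to 0.37). Mrps27, an RNA-binding protein of the pentatricopeptide repeat family, ranged from 58.8 CPM in ET to 80.8 in IBA, with -0.23 (-0.51 to 0.05). Both intervals include 0.

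**Figure D2:**
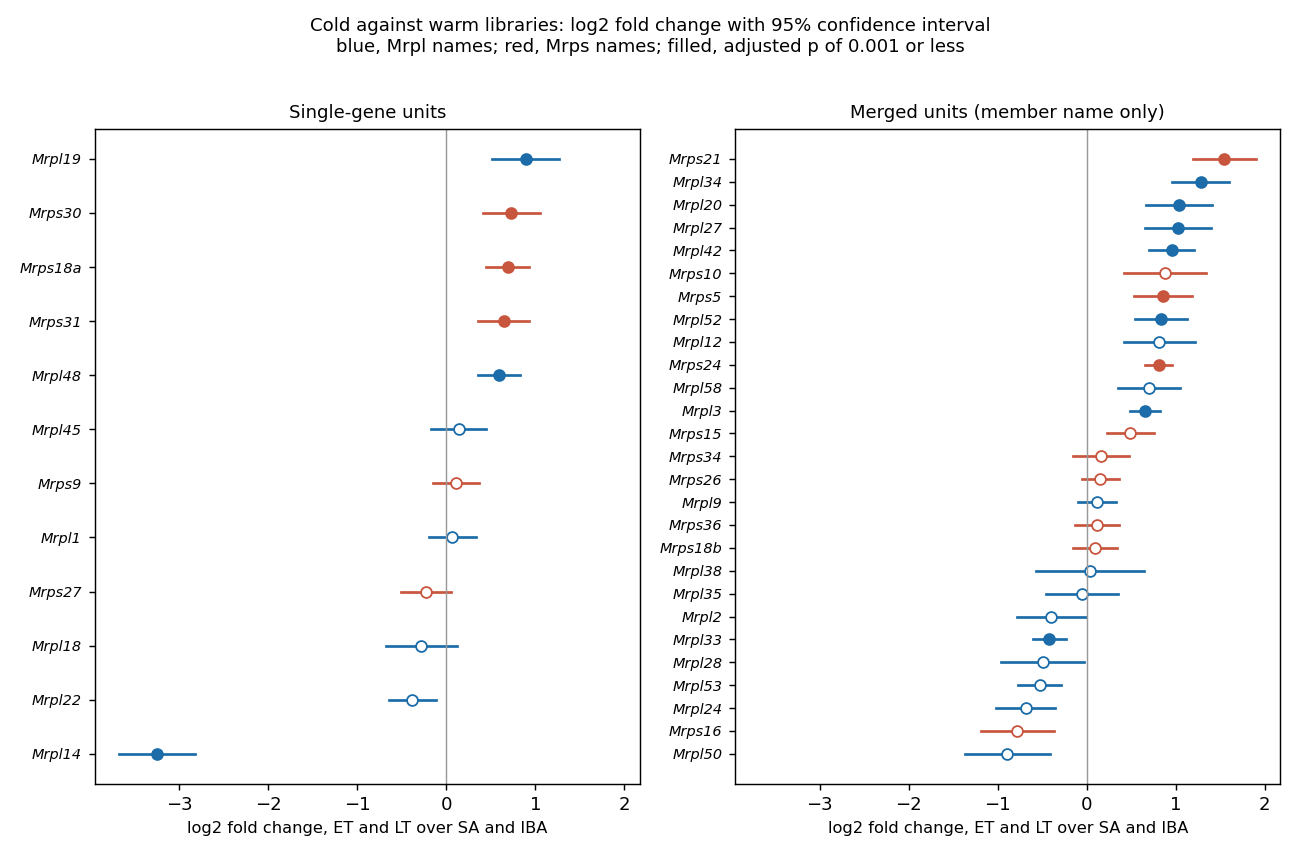
Log2 fold change of ET and LT over SA and IBA with its 95% confidence interval for the 12 single-gene units (left) and the 27 merged units, shown by their member's name (right), with Mrpl names in blue, Mrps names in red and filled circles at an adjusted p of 0.001 or less. Mrpl14 lies at -3.25, and the other single-gene units lie between -0.38 and 0.89.

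Along the torpor cycle the sequential steps were tested in the same fit. From SA to IBA, which separates summer from a winter animal that is also warm, 0 members were called higher and 0 lower by edgeR (0.0213% and 0.0% of all single-gene units), and DESeq2 also called 0. At an adjusted p of 0.05, 1 was higher (2.7%) and 0 lower (2.87%), and 2 had an unadjusted p under 0.05 (23.4%). These were Mrpl48, with a log2 change of 0.62 (standard error 0.15, adjusted p = 0.0289, edgeR), and Mrps9 with 0.37 (standard error 0.16, adjusted p = 0.194, edgeR). From IBA to Ent edgeR called 0 higher and 0 lower at 0.001 (0.0213% each), and DESeq2 called 0. At 0.05, 1 was lower (8.12%) and 0 higher (8.57%), and 5 had an unadjusted p under 0.05 (33.4%). The lower member was Mrpl14, with -0.74 on the log2 scale (standard error 0.22, adjusted p = 0.0403, edgeR).

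From Ent to ET, while the animals became cold, 1 member was called lower (1.17%) and 0 higher (1.13%), with 1 in each direction at 0.05 (13.8% lower and 15.4% higher), 4 at an unadjusted p under 0.05 (41.1%) and 0 higher in DESeq2. The log2 change of Mrpl14 over this step was -2.55 (standard error 0.25, adjusted p = 0.000272, edgeR), and this call was lost without Ent replicate 1, ET replicate 1 or ET replicate 2. In Mrps18a, Mrps30 and Mrps31 every ET library lay above every Ent library, as in 22.7% of all single-gene units, and their log2 changes were 0.45, 0.46 and 0.42, with adjusted p of 0.036, 0.095 and 0.0884 (edgeR). From ET to LT edgeR called 0 members in either direction (0.0% each), 0 also at 0.05 (0.0% higher and 0.34% lower), and 1 at an unadjusted p under 0.05 (9.27%), and DESeq2 called 0. That member was Mrps31, with -0.59 (95% confidence interval -1.01 to -0.16, adjusted p = 0.321, edgeR), and Mrpl14 had 0.25 (-0.37 to 0.87).

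From IBA, the warm interval between bouts, to LT, 1 member was lower (8.18%) and 0 were higher (9.46%), and DESeq2 called 1 higher. At 0.05, 2 were higher (24.1%) and 2 lower (26.6%), and 4 had an unadjusted p under 0.05 (57.0%). The log2 change of Mrpl14 was -3.04 (standard error 0.29, adjusted p = 1.4e-05, edgeR). For Mrps18a it was 0.81 (standard error 0.16, adjusted p = 0.00141, edgeR). Mrpl48, Mrps30 and Mrps31, called higher in the contrast of cold and warm, belong to the 5 mitochondria-specific members. Of these 5, 0 had an unadjusted p under 0.05 between IBA and LT (57.0% of all single-gene units, edgeR), with log2 changes from -0.32 to 0.46. The neighbouring steps share their libraries and are no independent tests of each other.

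Ent stood at different points between the warm and the cold level. On the log2 scale of CPM, the Ent mean had covered 26.6% of the way from the warm to the cold mean in Mrpl14, 40.1% in Mrps18a, 53.0% in Mrps30, 55.4% in Mrpl19, 81.1% in Mrps31 and 102% in Mrpl48. These shares are descriptions of 3 Ent libraries, and their differences were not tested.

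**Figure D3:**
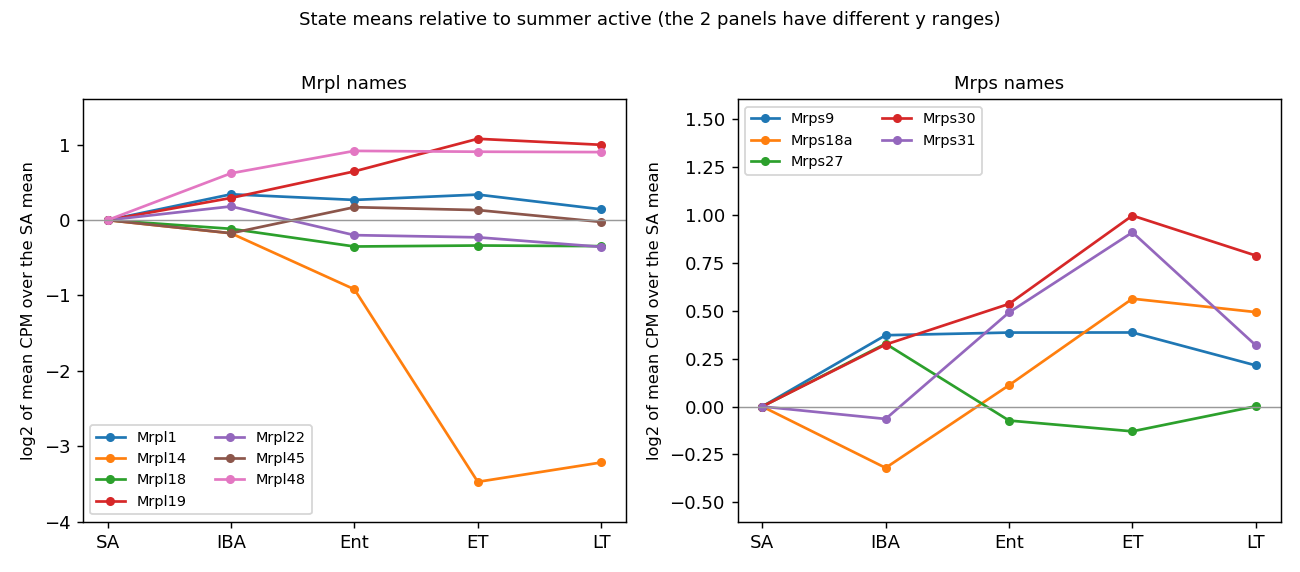
Log2 of each state's mean CPM over the SA mean for the 7 Mrpl (left) and 5 Mrps (right) single-gene units, with different y ranges in the panels and no error bars (each library is in the plot of levels by library). The Mrpl14 line is near 0 in IBA, lower in Ent and lowest in ET, whereas Mrps30 and Mrps31 are highest in ET.

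The large and the small subunit were compared by counts and medians, since members are not replicates. By name, 2 of 7 Mrpl members rose and 1 fell in the cold, and 3 of 5 Mrps members rose and 0 fell, with 3 of the 5 at an unadjusted p under 0.05 (68.3% of all single-gene units) and 0 lower in DESeq2 as well. The median log2 fold change was 0.07 for Mrpl and 0.65 for Mrps names, beside -0.07 over all single-gene units. With Mrps18a and Mrps30 placed in the large subunit, as in the assembled particle, 4 of 9 large members rose and 1 fell, 1 of 3 small members rose (Mrps31), and the medians were 0.14 and 0.11. The gap between the names therefore rested on where these 2 genes were counted. Of the 6 members with a bacterial counterpart, 1 rose and 1 fell (median -0.11), and of the 5 mitochondria-specific ones 3 rose and 0 fell (median 0.59, with 3 at an unadjusted p under 0.05 in edgeR and 0 lower in DESeq2). Mrps18a was left out of that division. Over all single-gene units 18.3% rose and 18.7% fell.

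Summed over the units, Mrpl names had 281 to 306 CPM in SA, 320 to 340 in IBA, 287 to 330 in Ent, 254 to 330 in ET and 268 to 282 in LT. Mrps names had 206 to 230 CPM in SA, 219 to 253 in IBA, 246 to 253 in Ent, 273 to 315 in ET and 254 to 286 in LT. The ratio of the sums was 1.31 to 1.49 in SA, 1.26 to 1.49 in IBA, 1.14 to 1.31 in Ent, 0.93 to 1.12 in ET and 0.99 to 1.05 in LT, so that every ET and LT library lay below every other library. This separation by name was lost without Mrpl14. Without it the Mrpl sum was 229 to 241 CPM in SA, 263 to 287 in IBA, 263 to 295 in Ent, 249 to 325 in ET and 261 to 275 in LT, and the ratio was 0.99 to 1.17 in SA, 1.06 to 1.20 in IBA, 1.05 to 1.17 in Ent, 0.91 to 1.11 in ET and 0.96 to 1.03 in LT, so that cold and warm libraries overlapped. The sums were taken by name, so Mrps18a and Mrps30 were counted with the Mrps names, although their proteins are built into the large subunit. Mrps18a averaged 58.5 CPM in the warm and 94.0 in the cold libraries, and Mrps30 averaged 23.2 and 38.9. The ratio with both genes moved to the large subunit was not examined. The separation is therefore one of names, and whether it holds for the assembled subunits was not tested. Longer units weigh more in such sums.

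**Figure D4:**
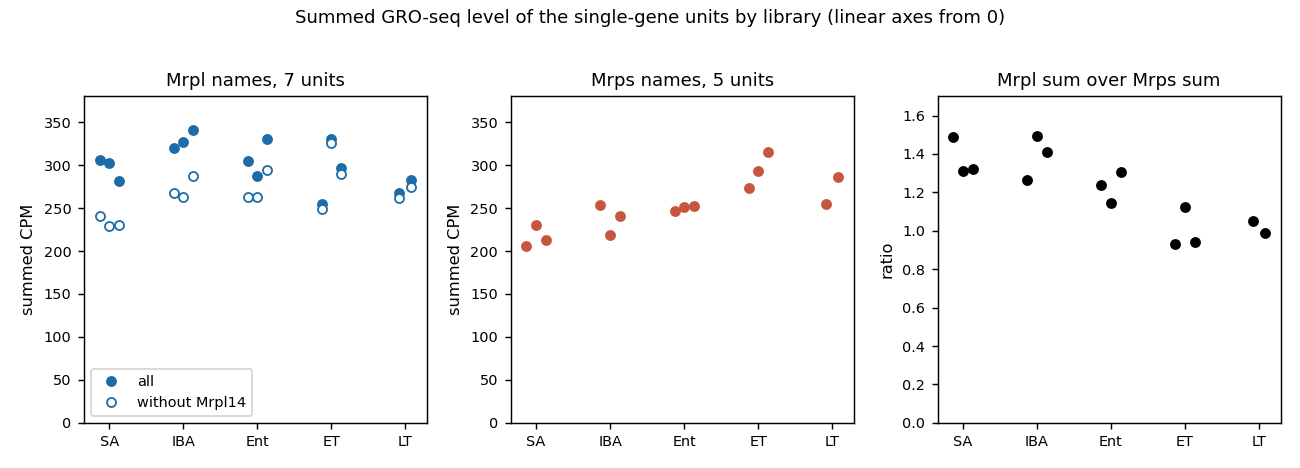
Summed CPM of the 7 Mrpl units (left, open circles without Mrpl14), of the 5 Mrps units (middle) and the ratio of the 2 sums (right) in each of the 14 libraries, on linear axes from 0. The ratio lies between 1.14 and 1.49 in SA, IBA and Ent and between 0.93 and 1.12 in ET and LT.

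The positions of the units relative to their neighbours were examined as well. None of the 12 members had another unit ending upstream on the same strand within 5 kb (0 of 12), and 1 of 12 had one within 20 kb: Acat2 ended 9.56 kb before Mrpl18. On the other strand, 2 members had a unit within 5 kb upstream, where Mrpl18 and a unit with Tcp1 lay 1.10 kb apart and Mrps27 and Ptcd2, a protein of mitochondrial RNA, lay 1.12 kb apart. The upstream unit nearest to Mrpl14 on its strand, which holds Slc35b2, ended 93.4 kb away and had a log2 fold change of -1.15 (adjusted p = 3.8e-06, edgeR). Mrps18a lies downstream of Mrpl14 on the same strand of Itri8, from 47592947 to 47624397, at 377 kb, and no other counted unit of that strand lies between them, so neighbouring members changed in opposite directions. Loci that carry no counted unit were not seen in this comparison.

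In 27 units the reads of a member cannot be divided from those of the loci merged with it. By name 17 hold a Mrpl and 10 a Mrps gene: in 22 the partners include a named protein gene, and in 5 (those of Mrpl3, Mrpl35, Mrpl42, Mrpl58 and Mrps5) the partners were unnamed, LOC or tRNA loci. The other merged members were Mrpl2, Mrpl9, Mrpl12, Mrpl20, Mrpl24, Mrpl27, Mrpl28, Mrpl33, Mrpl34, Mrpl38, Mrpl50, Mrpl52, Mrpl53, Mrps10, Mrps15, Mrps16, Mrps18b, Mrps21, Mrps24, Mrps26, Mrps34 and Mrps36. The last of these keeps its name, although the protein is now placed with an enzyme complex of the citric acid cycle. Among the 5 states 5 of the 27 differed at 0.001, beside 22.8% of all merged units, and 18 did at 0.05, beside 58.4%. In the cold 9 were higher (19.6% of merged units) and 1, the unit of Mrpl33 and Babam2, was lower (14.5%). The median log2 fold change was 0.16 in these 27 and 0.01 over all merged units.

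Every cold library lay above every warm library in 10 of the 27, beside 23.2% of all merged units, and below in 4, beside 17.4%. The 5 that differed among the states were all among the 10. The unit of Mrpl3 and a LOC locus stood at 89.1 ± 3.72 CPM in the SA and at 94.3 ± 0.78 in the IBA libraries (SD, n = 3 each). Ent libraries already averaged 131.7 ± 5.86 (SD, n = 3), close to the 146.9 ± 1.42 of LT (SD, n = 2). The log2 change in the cold was 0.65 (standard error 0.08, adjusted p = 1.2e-05, edgeR). The unit of Mrpl42 and an unnamed locus rose from 48.8 ± 1.06 CPM in SA and 49.0 ± 7.56 in IBA to 94.4 ± 14.2 in ET (SD, n = 3 each). Its log2 change was 0.95 (standard error 0.12), and the LT mean of 94.9 CPM was close to that of ET. The partner carries no gene symbol in either of these units. The unit of Mrps24 and URGCP had 162 ± 10.3 CPM in SA and 281 ± 15.8 in ET (SD, n = 3 each), and its log2 fold change was 0.81 (standard error 0.07). The unit of Dda1 and Mrpl34 had 36.1 ± 6.80 CPM in SA and 96.1 ± 21.1 in ET (SD, n = 3 each), with a log2 fold change of 1.28 (standard error 0.15). The unit of Ciart, a repressor of the circadian clock, and Mrps21 had the largest rise, 1.54 (standard error 0.16), from 58.3 ± 3.37 CPM in SA to 165 ± 57.4 in ET (SD, n = 3 each), where the single libraries had 197, 200 and 98.9 CPM. Which of the merged genes carried these changes cannot be told apart in these counts.

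The other machinery of mitochondrial gene expression was examined with lists of genes. Of 15 translation factors 6 had a single-gene unit. In the cold 18.3% of all single-gene units rose and 18.7% fell at 0.001, and the counts in these short lists are read beside that. Of the 6 translation factors, 3 fell and 0 rose (4 had an unadjusted p under 0.05, as did 68.3% of all single-gene units, and DESeq2 was not counted for these lists), with a median log2 fold change of -0.72. Guf1, a GTPase related to bacterial LepA, had -1.31 (standard error 0.12), Gfm2, which helps to recycle ribosomes, had -1.31 (standard error 0.17), and Mtif3, an initiation factor, had -1.04 (standard error 0.17). Of 24 assembly and rRNA modification factors 8 had a unit, of which Mrm3, an rRNA methyltransferase, rose (1.18, standard error 0.19) and Tfb1m, which methylates the small-subunit rRNA, fell (-0.91, standard error 0.16). Of 24 aminoacyl-tRNA synthetases and related enzymes 12 had a unit, of which 3 rose and 3 fell, led by Aars2 (1.58, standard error 0.18), Kars (0.92, standard error 0.12) and Pars2 (-1.74, standard error 0.17). Of 21 genes of mitochondrial transcription and RNA 10 had a unit, of which 3 rose and 1 fell: Mterf2 had 2.69 (standard error 0.16), Mtpap, the poly(A) polymerase, 0.75 (standard error 0.10), Tfam, which packages and transcribes mitochondrial DNA, 1.11 (standard error 0.20) and Tefm, the elongation factor, -2.22 (standard error 0.21). The adjusted p in edgeR was 0.000364 or less for the genes named here from these 4 lists. Mtif3, Mrm3, Tfam, Yy1 and Dap3 were named after their values were seen. Of 8 transcription factors 3 had a unit, and Yy1 rose (0.56, standard error 0.11). Of 6 mitoribosomal proteins with other names only Dap3 had a unit, with -0.49 (standard error 0.13, adjusted p = 0.00512, edgeR).

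For comparison, 29 cytosolic ribosomal proteins with a single-gene unit had a median log2 fold change of 0.32 in the cold, with 8 higher and 2 lower. The 31 units of oxidative phosphorylation, the pathway that mitochondrial translation serves, had a median of 0.57, with 14 higher and 3 lower, against 0.13, 5 and 1 among the 12 mitoribosomal members. The background for these counts is again 18.3% higher and 18.7% lower. The rise of the cytosolic list did not extend to LT alone. From ET to LT its median was -0.53, and from IBA to LT it was -0.22. In the latter step 4 were higher and 6 lower at 0.001, beside 9.46% and 8.18% of all single-gene units. From IBA to LT the median was 0.52 for oxidative phosphorylation and -0.005 for the 12 members.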

How the data were processed

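GRO-seq read counts of liver nuclei were analysed for 14 libraries, grouped by the hibernation state in the labels. The authors trimmed the reads with cutadapt, aligned them to HiC_Itri_2 with BWA, extended gene ends where fstitch segments of the pooled reads of a state reached further, merged overlapping genes, left out the first 500 nt after the start site and counted uniquely aligned reads with featureCounts. The deposited values are raw counts per unit, without normalization. Because the units were extended and merged from these same reads, a unit can hold transcription from beyond the annotated gene. The run-on libraries are strand-specific, but whether the counting used strand is not given in the sources used here.

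Counts were normalized by TMM in edgeR 4.0.16 (R 4.3.3), and a quasi-likelihood model of the 5 states was fitted to all 6324 units. The fit was tested on simulated data. P-values were adjusted over all units (Benjamini-Hochberg, threshold 0.001). CPM uses the TMM library size. Alternatives were DESeq2 1.42.0, other library sizes, filters, thresholds and sets of units, season, replicate number as a block, and each library left out. The members and gene lists were chosen with earlier results of these data known. All single-gene members are described. Merged members and listed genes were named when past 0.001 among the 5 states, at most 3 a list, and exceptions are stated. Nothing says whether same-state libraries shared litters or housing, so p-values measure the spread between these animals. With 0 identical pairs of libraries, each was counted once. Protein and promoter sequences of these genes were not analysed here.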

Additional observations from a re-analysis of the deposited data

How the results depend on the processing

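With 22 alternatives for single members, Mrpl14 and Mrps18a kept their calls in the cold in all, and Mrpl19, Mrpl48, Mrps30 and Mrps31 kept their direction but missed 0.001 in 10, 8, 13 and 14. Mrpl1 ranged from -0.016 to 0.14 with each library left out, reversing without ET replicate 2, and the median of Mrpl names, which is the value of Mrpl1 there, was also -0.016. Mrps27 reversed to 0.00095 with uniquely mapped reads as library size, and the median of Mrpl names became 0.30. The median of Mrps names became 0.11 with the subunit assigned by structure. With library totals and with uniquely mapped reads the median of all single-gene units shifted by 0.12 and 0.23 on the log2 scale, and the share of higher among all calls went from 49.4% to 59.2% and 66.6%.

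Members called among the 5 states numbered 4 with uniquely mapped reads, 6 with DESeq2, 6 at 0.05, 1 with a 2-fold minimum and 7 with merged units counted too. In the cold, 3 were higher with upper quartile normalization, 0 with a 2-fold minimum and 14 with merged units, and 2 were lower at 0.05 and with merged units. At 0.05, 1 was higher in IBA than SA, 1 lower in Ent than IBA and 1 higher in ET than Ent, and 2 were higher and 2 lower in LT than IBA. From Ent to ET 0 were lower with only the groups compared fitted, which leaves fewer libraries for the spread. From IBA to LT 1 was higher with library totals, with uniquely mapped reads, with DESeq2 and with single-gene units only in the fit, and 4 with merged units. Where not stated, the cause was not tested.

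Leaving out each library gave 1 to 2 members among the 5 states, 1 to 4 higher in the cold, 0 to 1 lower from Ent to ET, 0 to 1 higher from IBA to LT, and medians from -0.016 to 0.11 for Mrpl and from 0.53 to 0.70 for Mrps names. With 1 LT library left, it was assumed to vary like the other states.

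With replicate number as a block, 1 member was called among the 5 states and 3 higher in the cold (Mrpl19, Mrps18a and Mrps30), and every other count of members stayed. The numbers do not pair the animals: of 26 same-numbered pairs, 6 correlated above 0.1 (median r 0.04), and 5 of 14 libraries correlated best with their own number. Of 52 pairs with other numbers, 13 correlated above 0.1 (median r -0.01). The contrast of cold and warm could not be fitted with season, since ET has a season of its own; with season as a covariate the counts from SA to IBA, IBA to Ent and IBA to LT stayed. Counts of 24 to 51 in the cold limit the precision of Mrpl14 there.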

Other observations

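On the minus strand of Itri8, 4 members lie near each other, a set chosen after the values were seen. In order of position these are the merged unit of Guca1b and Mrps10, from 46271322 to 46300738, the merged unit of Cul7 and Mrpl2, from 47058760 to 47078043, Mrps18a, from 47592947 to 47624397, and Mrpl14, from 48001514 to 48024273. Their log2 fold changes in the cold were 0.88 (adjusted p = 0.003, edgeR), -0.40 (adjusted p = 0.0685), 0.69 (adjusted p = 0.00014) and -3.25 (adjusted p = 1.9e-07). In the first and second of these the member's reads cannot be divided from its partner's, and neither passed 0.001.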
